A study of Mus musculus with 4 samples.

Results

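The genes described here are 32 genes of glycolysis and lactate transport, out of 33456 genes listed for each library of mouse dorsal root ganglion (DRG) cells. They were taken by symbol and not by a threshold on their measured values, and all 32 were found. The list was, however, made with earlier results of these data known. They run from glucose entry (*Slc2a1*, *Slc2a3*) through the enzymes that lead to pyruvate, lactate dehydrogenase, the monocarboxylate carriers, the kinases that restrain pyruvate dehydrogenase, a subunit of that complex (*Pdha1*), and the side branches *Bpgm* and *Pygb*. Glycolysis splits glucose into pyruvate, and most of its steps can be carried out by more than one isoform, each from its own gene, with different kinetics and different tissues of use. Pyruvate is either reduced to lactate by lactate dehydrogenase, a tetramer of A and B subunits, or oxidised in mitochondria through the pyruvate dehydrogenase complex. In nervous tissue glia are known to hold glycogen and to pass lactate to axons through monocarboxylate transporters. Satellite glial cells (SGC) wrap the sensory neuron soma and are often set beside astrocytes.

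The libraries came from dissociated whole DRG of C57BL/6 mice of 8 to 12 weeks (L4 in the labels, L4 and L5 in the study's methods), live cells being sorted and loaded on the 10x Chromium 3′ system. There were 2 libraries of uninjured ganglia (control 1 and control 2) and 2 libraries of ganglia taken 3 days after a sciatic nerve crush (injury 1 and injury 2). No transgene is named for either group. The crush was done under isoflurane with buprenorphine for analgesia, and no such treatment is described for uninjured mice. The study calls the uninjured condition naïve, but its methods also allow contralateral ganglia as controls. Whether the uninjured ganglia came from other mice is thus not settled, and surgery, drugs and crush cannot be told apart. Cells of several mice were pooled for each batch, so a library is a pool and not an animal. Of 6975 barcodes, 6095 were kept by the cell limits that the study's methods state (600 to 15000 UMIs, 500 to 4000 genes, under 10% mitochondrial UMIs). Total UMIs ranged from 5585909 in control 1 to 11210875 in control 2.

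Cells were assigned to types by a marker gate, since no annotation of cells was used: a cell was named when at least 3 markers of a type had a UMI and the share of that type's markers detected was at least 2 times that of every other type. No gene of the glycolysis list was a marker. The gate named 4563 cells (74.9%) and left 1532 unnamed. Each name carries "-like" for this reason. There were 1172 SGC-like, 1102 fibroblast-like, 949 macrophage-like, 429 endothelial-like and 235 Schwann-like cells, all with at least 10 cells in each of the 4 libraries. The 10 genes highest by fold in each of the 11 gated types tested held 3 to 7 of that type's own markers. Because cells were gated on these same markers, this is not an independent check of the names. Those of monocyte-like cells held 4 of their own, 1 dendritic cell marker (*Napsa*), and *Elane*, *Prtn3*, *Ctsg* and *Mpo*, which are known from granulocyte precursors. Neuron-like cells were few, 33 with the upper limits on UMIs and genes per cell and 64 without them. Libraries differed in make-up: Schwann-like, pericyte-like and smooth muscle-like cells came mainly from control 1 and injury 1, T cell-like cells mainly from control 1, and erythroid-like cells mainly from control 2 and injury 2. Immediate early and heat shock genes, which respond to enzymatic dissociation, summed to 10330 counts per 1e6 UMIs in SGC-like cells of control 1 and to 2611, 5638 and 3241 in those of control 2, injury 1 and injury 2. Their part in the results was not tested. Of the barcode sequences, 20 occurred in 2 libraries.

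Levels are counts per 1e6 UMIs of the same library and type (CPM), so they are levels relative to all captured RNA of that type. Because this method counts the 3′ end of each molecule, CPM of different genes can be set side by side with no correction for length. Over all 32 genes, SGC-like cells gave 5917 ± 127 CPM (SD, n = 4 libraries) to the list, Schwann-like cells 4987 ± 442, endothelial-like cells 3706 ± 273, fibroblast-like cells 2795 ± 222 and macrophage-like cells 2489 ± 351. Among types seen in fewer libraries, smooth muscle-like cells gave 4352 ± 384 (n = 3), monocyte-like cells 4445 ± 450 (n = 3), pericyte-like cells 3937 ± 308 (n = 2), dendritic cell-like cells 3144 ± 285 (n = 2), Scn7a glia-like cells 2794 ± 685 (n = 2) and erythroid-like cells 802 ± 526 (n = 2). The SGC-like and Schwann-like sums did not overlap in any library with those of endothelial-like, fibroblast-like or macrophage-like cells. The single gene *Ldhb* made up a large part of both glial sums, and *Aldoc* a large part of the SGC-like sum (levels below). Sums without these genes were not compared, so the gap does not show that the list as a whole was higher in glia. Among sums of at least 10 cells, the neutrophil-like cells of control 1 (8033) and the neuron-like cells of control 2 (7538), each from 1 library, were the highest. Neutrophil-like sums of fewer cells were lower, at 4888, 6103 and 4896 in control 2, injury 1 and injury 2. Those of neuron-like cells were 9468, 8311 and 9462 in control 1, injury 1 and injury 2.

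**Figure D1:**
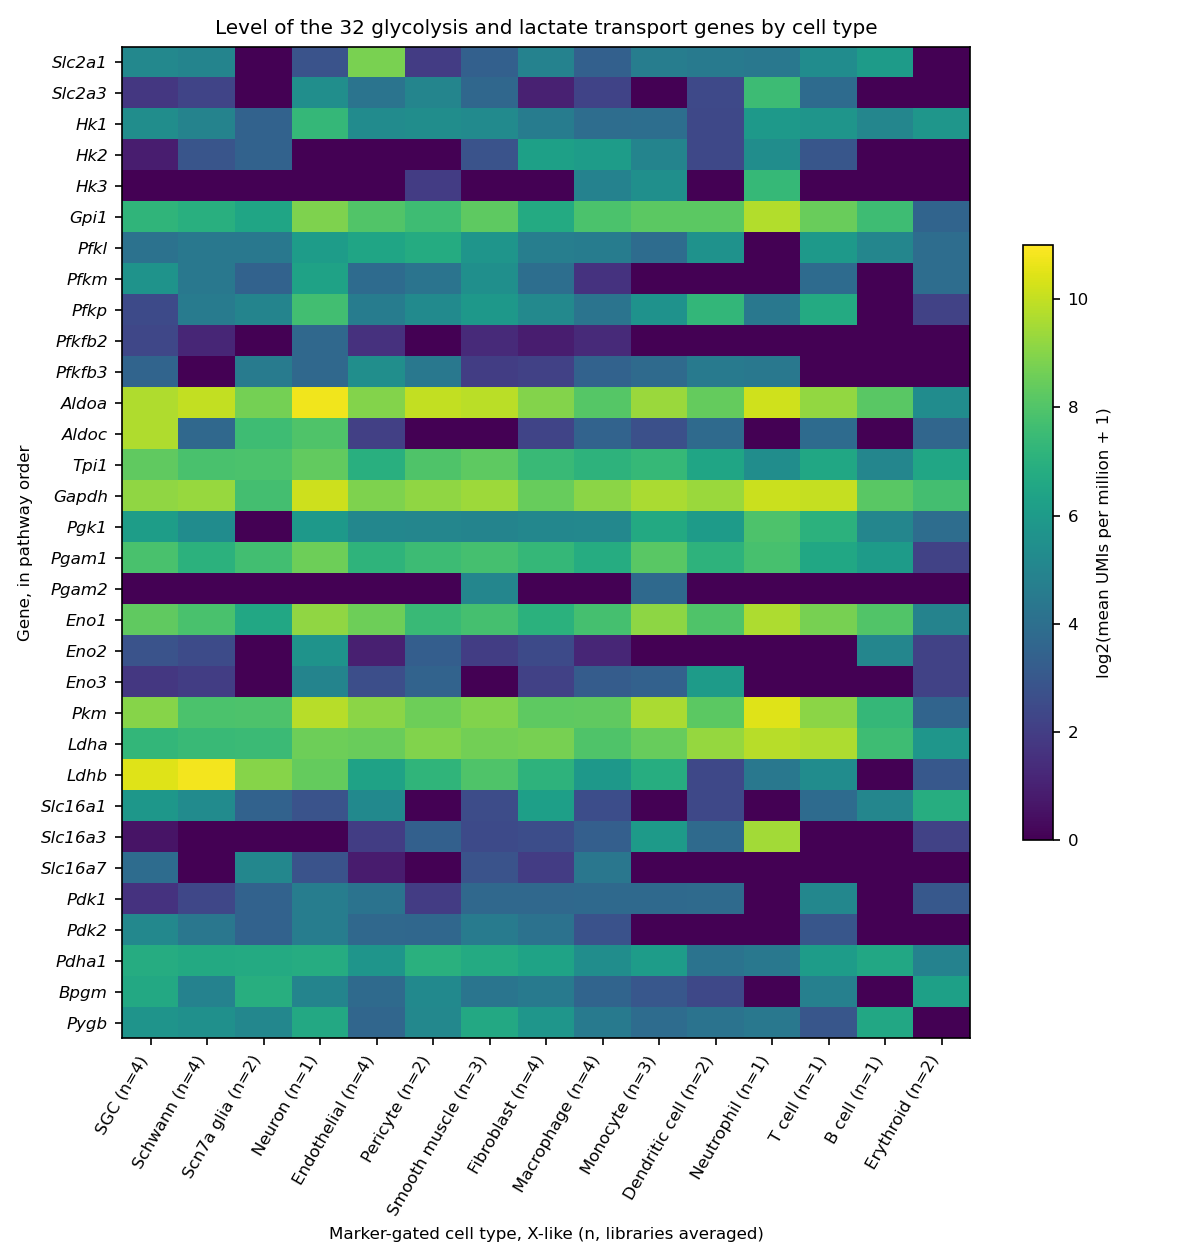
Heat map of the mean level of each gene, as log2(CPM + 1), in 15 marker-gated cell types, with the number of libraries averaged in the column names. *Ldhb* reaches 1422 CPM in SGC-like cells (1810 in the Schwann-like column), *Aldoc* 817 in SGC-like against 12.1 in Schwann-like cells, and *Slc2a1* 442 in endothelial-like cells.

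Each type was compared with the unweighted mean of the other types by edgeR's quasi-likelihood test on summed UMIs, with the library as a block, over 11 types and 6893 genes. Calls needed a fold of at least 4 (2 on the log2 scale) together with an adjusted p under 0.05 by the Benjamini-Hochberg method. The libraries are the replicates, and the p-values measure only the spread between these libraries. Of the 32 genes, 23 passed the filter on low counts. The other 9, *Eno2*, *Hk3*, *Pdk1*, *Pdk2*, *Pfkfb2*, *Pfkfb3*, *Pgam2*, *Slc16a7* and *Slc2a3*, were too low in too many types and are described by their levels. Of 253 pairs of a gene and a type, 23 were called higher and 9 lower. The fitted fold gives each of the other types equal weight on the log scale, so it can be large where other types are near 0. Of the 23 pairs called higher, 10 were also at least 4 times the plain mean CPM of the other types. A total of 11 genes were higher in at least 1 type, 8 were lower in at least 1 type, and 7 (*Gapdh*, *Hk1*, *Ldha*, *Pdha1*, *Pfkl*, *Pgk1*, *Tpi1*) were called in none.

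SGC-like cells held the most members called higher, 6 of 23, with 1 lower, where 12.8% of all genes tested were called higher in these cells and 0.682% lower. Schwann-like cells had 2 higher and 0 lower (11.3% and 1.36% of all genes), Scn7a glia-like cells 2 and 0 (6.85% and 0.595%), endothelial-like cells 2 and 0 (13.8% and 0.696%) and pericyte-like cells 0 and 0 (11.7% and 0.711%). Smooth muscle-like cells had 2 and 0 (12.5% and 1.71%), fibroblast-like cells 2 and 0 (14.7% and 0.392%), macrophage-like cells 2 and 0 (13.7% and 0.566%) and monocyte-like cells 2 and 0 (9.52% and 2.67%). Dendritic cell-like cells had 2 higher and 1 lower (9.44% and 2.52%), and erythroid-like cells 1 higher and 7 lower (6.6% and 9.05%). The median log2 fold over the 23 genes was 0.84 in SGC-like cells beside 0.13 over all genes, and -0.73 in erythroid-like cells beside -1.11 over all genes.

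*Slc2a1* encodes GLUT1, the transporter of blood-nerve and blood-brain barrier endothelium, and it was found at 463, 336, 668 and 298 CPM in endothelial-like cells of control 1, control 2, injury 1 and injury 2. No library of SGC-like, Schwann-like, fibroblast-like or macrophage-like cells exceeded 54.9 CPM, so the groups did not overlap. The endothelial-like mean of 442 ± 167 stood 27.8 times above the mean of the other types, with a fitted log2 fold of 5.92 ± 0.25 (SE, edgeR adjusted p = 1.31e-23). *Slc2a1* was also called in SGC-like cells (log2 fold 2.02 ± 0.54), yet its level there, 33.8 ± 10.4 CPM, was below the plain mean of the other types (56.7), and without each library in turn the log2 fold was 1.36 to 1.62 and missed the threshold. *Slc2a3* encodes GLUT3, the neuronal transporter of high affinity. It stayed at 17.9 ± 8.15 CPM in endothelial-like cells, and reached 42.7 CPM in the neuron-like cells and 183 CPM in the neutrophil-like cells (9 UMIs, exact 95% Poisson interval 83.5 to 347), each from 1 library. In endothelial-like cells *Slc2a1* made up 95.6% ± 2.97 (n = 4) of the UMIs of the pair.

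Hexokinases trap glucose by phosphorylation. *Hk1*, the form of most resting tissues and of brain, ranged among the types with 4 libraries from 14.5 ± 2.08 CPM in macrophage-like to 40.5 ± 10.8 in SGC-like cells and was called in no type. *Hk2*, the form of insulin-responsive and rapidly growing tissues, was found in fibroblast-like cells at 41.8, 80.9, 46.9 and 127 CPM and in macrophage-like cells at 49.0, 139, 32.9 and 48.0 CPM, in the order control 1, control 2, injury 1, injury 2. In SGC-like cells it stayed at or below 1.5 CPM in every library, and endothelial-like cells had 0 UMIs of 2034251. The log2 fold was 4.36 ± 0.40 in fibroblast-like cells (adjusted p = 5.01e-12) and 4.35 ± 0.43 in macrophage-like cells (adjusted p = 2.6e-11). Monocyte-like cells (29.7 ± 18.2 CPM, n = 3) had a log2 fold of 3.27 ± 0.94. Without control 1 the fold fell to 2.62, still above 2, and was not called because its adjusted p was not under 0.05. The granulocyte precursor genes named above were among the leading genes of these cells, and their part in the *Hk2* and *Slc16a3* levels was not tested. *Hk3*, a hexokinase of myeloid cells, had 0 UMIs in SGC-like cells (of 5158137, which allows up to 0.582 CPM), in Schwann-like, endothelial-like and fibroblast-like cells, and 28.0 ± 11.1 CPM in macrophage-like, 43.6 ± 38.4 in monocyte-like and 162 in neutrophil-like cells (8 UMIs, 70.1 to 320).

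Hexokinase UMIs can also be read as shares of the family within each type. *Hk1* took 97.5% ± 0.719 in SGC-like cells (n = 3) and 100% in endothelial-like cells (n = 2). *Hk2* took 73.3% ± 9.53 in fibroblast-like cells (n = 4), and in macrophage-like cells *Hk2* took 56.8% ± 16.8, *Hk3* 28.4% ± 12.6 and *Hk1* 14.9% ± 6.49. In the neuron-like cells all 26 hexokinase UMIs were *Hk1* (exact binomial interval 86.8% to 100%). A share within a library does not depend on scaling. Shares were compared between types by the exact two-sided permutation test on within-library differences, which cannot give a p below 0.13 (rounded) with 4 libraries. Over 59 comparisons 32 had the same sign in all 4 libraries and reached that p, and the smallest adjusted p was 0.23, so no difference in shares can pass the threshold by this test.

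Phosphofructokinase commits the sugar to glycolysis, and its L, M and P subunits were used unequally. *Pfkm*, the muscle subunit, was found at 42.9, 47.5, 58.3 and 47.5 CPM in SGC-like cells, and in macrophage-like cells at no more than 3.70. Its log2 fold in SGC-like cells was 2.87 ± 0.37 (adjusted p = 1.55e-08, 3.59 times the mean of the other types). *Pfkp*, the platelet subunit, was lower in SGC-like cells (4.61 ± 3.30 CPM against 43.1 in the other types, log2 fold -2.41 ± 0.48), but the log2 fold was -1.90 without control 1 and -1.72 without injury 1, both short of the threshold. Dendritic cell-like cells had the reverse: *Pfkp* stood at 173 and 137 CPM in control 1 and injury 1 (log2 fold 3.07 ± 0.39, adjusted p = 1.78e-08), and *Pfkm* had 0 UMIs in both. *Pfkm* was also called in smooth muscle-like cells (44.1 ± 37.8 CPM, n = 3, log2 fold 2.20 ± 0.66), where control 2 held 87.4 CPM and the fold fell to 1.95 without that library.

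In shares, *Pfkm* took 65.7% ± 2.40 of phosphofructokinase UMIs in SGC-like cells (n = 3) and 10.9% ± 3.99 in endothelial-like cells (n = 4). *Pfkl*, the liver subunit, took 69.8% ± 7.44 in endothelial-like cells and 57.3% ± 9.59 in macrophage-like cells (n = 3), and *Pfkp* took 46.8% ± 12.2 in fibroblast-like cells and 57.9% in neuron-like cells (33 of 57 UMIs, 44.1% to 70.9%). The *Pfkl* share was higher in endothelial-like than in fibroblast-like cells by 25.5 to 51.0 percentage points in 4 of 4 libraries (exact p = 0.13, adjusted p = 0.23). *Pfkfb3* and *Pfkfb2* make the activator fructose 2,6-bisphosphate. *Pfkfb3* was highest in endothelial-like cells among the types with 4 libraries (63.0, 31.4, 42.0 and 33.8 CPM), with 10.6 ± 4.26 in SGC-like and 3.41 ± 1.93 in fibroblast-like cells, while *Pfkfb2* did not exceed 4.04 ± 1.94 CPM in those types. *Gpi1*, which isomerises glucose 6-phosphate before this step, ranged among the types with 4 libraries from 104 ± 12.8 CPM in fibroblast-like to 257 ± 20.7 in endothelial-like cells, and its call was in erythroid-like cells, where it was lower.

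Aldolase cleaves the sugar, and its C isoform set SGC-like cells apart from the other glia. *Aldoc* (chromosome 11, 78322968 to 78327781, GRCm38) encodes aldolase C, the brain isoform that also marks astrocytes and Purkinje cells. SGC-like cells held 649, 943, 832 and 843 CPM, and Schwann-like cells 15, 13.9, 19.4 and 0. There was no overlap, and endothelial-like, fibroblast-like and macrophage-like cells did not exceed 18.0 CPM in any library. The SGC-like mean of 817 ± 122 was 32.9 times the mean of the other types (log2 fold 7.14 ± 0.21, adjusted p = 4.21e-28). Scn7a glia-like cells, which carry markers of non-myelinating glia, held 136 and 243 CPM (log2 fold 4.78 ± 0.76, adjusted p = 8.46e-06). These levels rest on 12 cells of control 1 (22082 UMIs in all) and 24 of injury 1 (49407), so on few *Aldoc* UMIs. SGC markers summed to 1177 and 2672 CPM in those 2 libraries of Scn7a glia-like cells, against 11970 to 18520 in SGC-like cells, and to 209.7 CPM in the Schwann-like cells of control 1. Their part in the *Aldoc* level was not tested.

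*Aldoa*, the isoform of muscle and most tissues, did not follow *Aldoc*: SGC-like cells held 822 ± 63.0 CPM and Schwann-like cells 1003 ± 36.8. SGC-like cells thus held the A and C isoforms in near equal amounts, with *Aldoc* at 49.7% ± 5.49 of aldolase UMIs (41.7% to 53.8% over 4 libraries), while Schwann-like cells had 1.19% ± 0.833. The *Aldoa* share was lower in SGC-like than in Schwann-like cells by 40.3 to 52.8 percentage points in 4 of 4 libraries (exact p = 0.13). *Aldoc* took 36.4% of 33 aldolase UMIs in 1 library of Scn7a glia-like cells and 12.5% of 328 in the neuron-like cells (9.12% to 16.6%). With types from clusters the share in Scn7a glia-like cells was 18.2% ± 1.87 (n = 2). When each cell was thinned to 1000 UMIs, *Aldoc* was detected in 49.7% of SGC-like cells and in 1.90% of Schwann-like cells, with 83.5% and 3.83% before thinning. The share in pericyte-like cells, which are not known to express aldolase C, was 0 of 148.

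Between aldolase and lactate dehydrogenase the types differed less in isoforms. *Tpi1*, *Gapdh* and *Pgk1* have no other isoform in the list, and none was called in any type. *Gapdh* ranged from 349 ± 54.9 CPM in fibroblast-like to 626 ± 70.5 in Schwann-like cells among types with 4 libraries, and *Tpi1* from 123 ± 29.4 in endothelial-like to 320 ± 37.8 in SGC-like cells. *Pgam1*, the common phosphoglycerate mutase, made up 100% of the pair in SGC-like, endothelial-like and fibroblast-like cells. *Pgam2*, the muscle form, was found in smooth muscle-like cells at 26.6, 29.1 and 40.7 CPM (13.4% ± 4.13 of the pair, n = 3), had 0 UMIs of 4696873 in fibroblast-like cells, and outside smooth muscle-like cells had UMIs only in the monocyte-like cells of injury 1 among the types with at least 10 cells in a library. *Pkm*, pyruvate kinase, lay between 232 ± 30.2 CPM in Schwann-like and 547 ± 37.3 in endothelial-like cells.

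Enolase was *Eno1* for 94.1% ± 1.44 to 98.4% ± 0.512 of UMIs in the 5 types with 4 libraries. *Eno3*, the muscle enolase, was the exception in dendritic cell-like cells, at 69.3 and 60 CPM against a mean of 4.56 in the other types (log2 fold 4.85 ± 0.67, adjusted p = 2.07e-07) and 21.4% ± 5.11 of enolase UMIs (n = 2). With types from clusters that share was lower, at 10.1% ± 4.97 (n = 4). *Eno2*, the neuron-specific enolase, took 7.34% of 109 UMIs in neuron-like cells (3.22% to 14.0%) and 2.06% ± 1.36 in SGC-like cells.

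**Figure D2:**
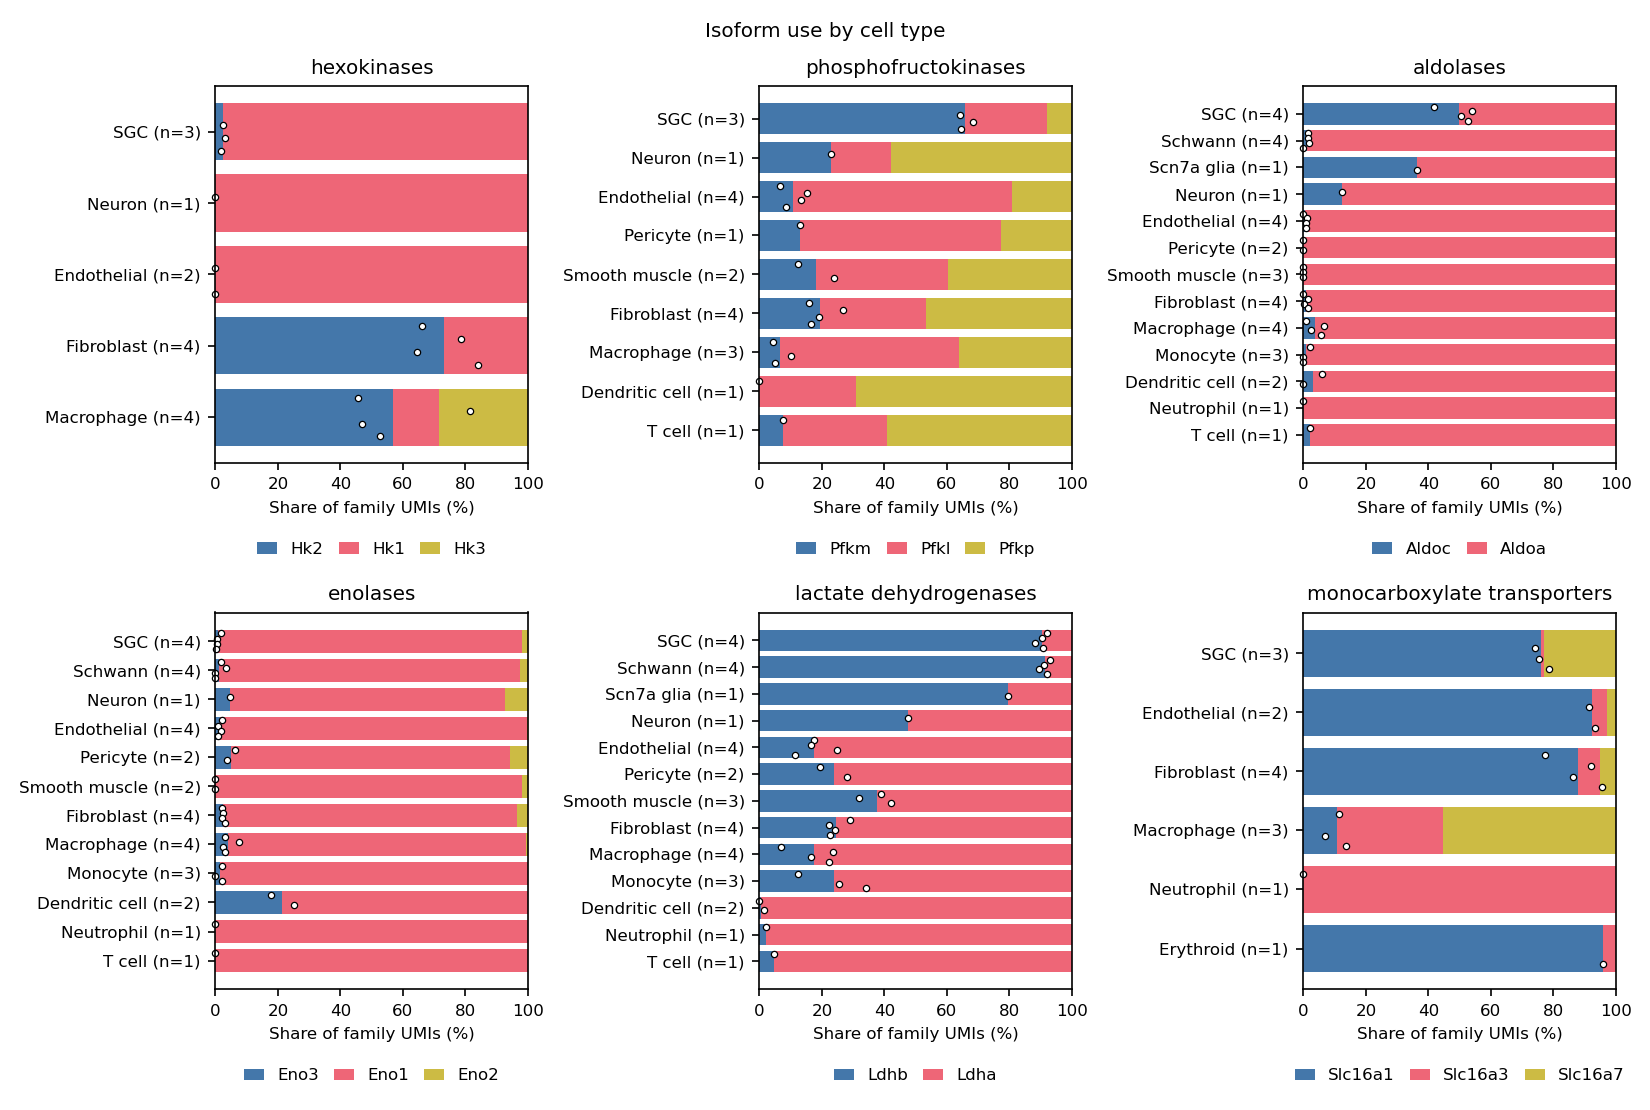
Share of UMIs taken by each isoform of 6 families, as the mean over libraries with at least 10 cells and 20 family UMIs (n in the row names), with open points for the first-named isoform in single libraries. *Ldhb* takes 90.3% of lactate dehydrogenase UMIs in SGC-like cells and 91.2% of those in Schwann-like cells, while *Aldoc* takes 49.7% of aldolase UMIs in SGC-like cells against 1.19% in Schwann-like cells.

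Of the lactate dehydrogenase genes, *Ldhb* was called higher in SGC-like and Schwann-like cells and *Ldha* in no type. *Ldhb* encodes the B or heart subunit, whose tetramers are known to favour the oxidation of lactate, and *Ldha* the A or muscle subunit, which favours its formation. The 250 bases upstream of the RefSeq start of each gene (for *Ldha* the first of the starts listed) are printed to show the promoters of the pair, with capitals for the core of the hypoxia response element (ACGTG or CACGT, both strands, overlapping matches joined), the site by which HIF factors are known to act on *Ldha*.
Ldha: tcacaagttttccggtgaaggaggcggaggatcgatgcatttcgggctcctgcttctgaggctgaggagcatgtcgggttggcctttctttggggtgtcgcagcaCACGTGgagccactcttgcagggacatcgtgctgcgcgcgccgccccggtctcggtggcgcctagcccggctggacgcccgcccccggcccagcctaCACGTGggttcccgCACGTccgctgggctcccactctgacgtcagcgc
Ldhb: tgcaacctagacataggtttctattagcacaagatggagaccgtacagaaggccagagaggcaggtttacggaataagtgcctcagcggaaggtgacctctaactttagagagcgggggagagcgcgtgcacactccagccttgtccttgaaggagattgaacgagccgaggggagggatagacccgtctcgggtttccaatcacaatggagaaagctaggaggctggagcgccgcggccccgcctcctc
The *Ldha* window is chr7:46845554-46845803 on the plus strand and the *Ldhb* window chr6:142507958-142508207 on the minus strand of GRCm38.p6. The first lies within the annotated span of *Ldha*, outside its exons, before the first of 2 listed RefSeq starts, and the second lies directly upstream of *Ldhb*. The *Ldha* window held 3 matches at 67.2% GC, and the *Ldhb* window 0 at 56.4% GC. Only 1 of the 2 *Ldha* windows held a match, so the window at its other listed start had none, as the *Ldhb* window. Of the 32851 such windows of all genes 16.6% held a match (median GC 52.4%), and of the 46 windows of the 30 listed genes that have one 19 did (41.3%, median GC 59.6%). These are matches of letters and not measured sites.

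*Ldhb* was found in SGC-like cells at 1660, 1287, 1436 and 1304 CPM and in Schwann-like cells at 2132, 1539, 1986 and 1584 CPM, in the order control 1, control 2, injury 1, injury 2. The highest library among endothelial-like, fibroblast-like and macrophage-like cells held 150 CPM, so that both kinds of glia stood clear of them. The log2 fold was 3.75 ± 0.17 in SGC-like cells (4.56 times the mean of the other types, adjusted p = 1.58e-22) and 4.15 ± 0.18 in Schwann-like cells (6.63 times, adjusted p = 9e-24). *Ldha* was called in no type, but was lowest in these glia among the types with 4 libraries: SGC-like cells held 153 ± 28.4 CPM and Schwann-like cells 174 ± 43.6, against 249 ± 68.5 for macrophage-like, 360 ± 31.6 for endothelial-like and 425 ± 42.1 for fibroblast-like cells.

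The *Ldhb* share was 90.3% ± 1.60 for SGC-like cells and 91.2% ± 1.49 for Schwann-like cells (n = 4). It was 79.5% in 1 library of Scn7a glia-like cells and 37.6% ± 5.34 in smooth muscle-like cells (n = 3). Fibroblast-like cells had 24.5% ± 3.08, endothelial-like cells 17.5% ± 5.43 and macrophage-like cells 17.3% ± 7.58 (n = 4). The macrophage-like share ran from 6.98% to 23.6% over libraries and was 25.3% ± 15.5 with types from clusters. The *Ldha* share was lower in SGC-like than in endothelial-like cells by 63.4 to 79.3 percentage points and than in macrophage-like cells by 66.7 to 84.9, in 4 of 4 libraries (exact p = 0.13, adjusted p = 0.23 for each). Between SGC-like and Schwann-like cells the *Ldha* share differed by 0.601 to 1.25 points, again in 1 direction in all 4 libraries. Dendritic cell-like cells were at the other end, with 1 *Ldhb* UMI in the 2 libraries tested (0 CPM in control 1, and 8.58 CPM in injury 1 with an exact interval of 0.217 to 47.8) beside *Ldha* at 612 ± 32.1 CPM, and were called lower for *Ldhb* (adjusted p = 4.9e-05). *Ldhb* took 4.65% of 129 UMIs in T cell-like (1.73% to 9.85%) and 2.22% of 45 in neutrophil-like cells (0.0562% to 11.8%). The neuron-like cells of control 2 lay between, at 47.5% of 118 UMIs (38.2% to 56.9%).

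The monocarboxylate transporters move lactate and pyruvate with a proton. *Slc16a1* (MCT1), the carrier of glia, endothelium and red cells, was at 79.6, 58.5, 30.4 and 52.6 CPM in SGC-like cells and at 34.6, 94.1, 50.2 and 115 CPM in fibroblast-like cells, where both libraries numbered 2 exceeded both numbered 1. It was called in 5 types. The fold was largest in fibroblast-like cells among those with 4 libraries (log2 fold 3.14 ± 0.36, adjusted p = 1.17e-09, 2.72 times the mean of the others) and was 4.07 ± 0.63 in erythroid-like cells (67.9 and 164 CPM, adjusted p = 2.24e-06). The calls in SGC-like (log2 fold 2.42 ± 0.43), Schwann-like (2.30 ± 0.60) and endothelial-like cells (2.05 ± 0.51) were each near the threshold. Without control 1 these became 1.96, 1.04 and 1.52, and without injury 1 they became 1.98, 1.60 and 1.40. The corresponding mean levels were 55.3, 38.8 and 35.9 CPM, only 1.92, 1.27 and 1.17 times the plain mean of the other types.

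*Slc16a3* (MCT4), the lactate exporter of strongly glycolytic cells, stayed at or below 5.0 ± 1.4 CPM in glia, endothelial-like and fibroblast-like cells and was found at 89.5, 83.5 and 12.5 CPM in monocyte-like cells of control 1, injury 1 and injury 2 (log2 fold 4.35 ± 0.62, adjusted p = 2.97e-07). The neutrophil-like cells of control 1 held 710 CPM (35 UMIs, 495 to 987), and all 35 of their carrier UMIs were *Slc16a3* (90.0% to 100%). Macrophage-like cells were called too (log2 fold 2.12 ± 0.53) at only 9.09 ± 6.97 CPM, below the mean of the other types (10.1). That call was kept in 3 of 8 alternatives, and the log2 fold was 1.47 at the lowest. *Slc16a7* (MCT2), the carrier of high affinity known from neurons, had 13.8 ± 4.40 CPM in SGC-like cells and 19.3 ± 3.18 CPM in macrophage-like cells, and had 0 UMIs in Schwann-like cells. In shares, *Slc16a1* took 76.0% ± 2.25 in SGC-like cells with *Slc16a7* at 23.0% ± 2.50 (n = 3), and 87.8% ± 8.00 in fibroblast-like cells (n = 4). In macrophage-like cells *Slc16a7* took 55.3% ± 8.96, *Slc16a3* 34.1% ± 12.2 and *Slc16a1* 10.7% ± 3.40 (n = 3).

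At the mitochondrial gate, *Pdk2* and *Pdk1* encode kinases that switch off pyruvate dehydrogenase, *Pdk1* being a known target of hypoxia signalling. SGC-like cells used *Pdk2* (34.2 ± 5.58 CPM, 93.0% ± 3.77 of the pair, n = 3), and fibroblast-like cells used both (*Pdk2* 58.2% ± 11.5, n = 4). *Pdha1*, the catalytic subunit of the complex, lay between 40.5 ± 7.83 CPM in macrophage-like and 112 ± 6.11 in SGC-like cells. *Bpgm*, which makes 2,3-bisphosphoglycerate and is best known from red cells, was higher in SGC-like cells at 110, 98.8, 93.3 and 89.9 CPM (log2 fold 2.22 ± 0.20, adjusted p = 5.47e-13, 2.94 times the mean of the others), and in Scn7a glia-like cells at 136 and 101 CPM (log2 fold 2.16 ± 0.66, and 1.99, short of the threshold, with no filter on low counts). The Scn7a glia-like levels rest on 12 and 24 cells, so on few UMIs. Schwann-like cells held 28.4 ± 12.7 CPM. *Pygb*, the brain glycogen phosphorylase, was called higher in smooth muscle-like cells (97.3 ± 33.8 CPM, n = 3, log2 fold 2.44 ± 0.42), where the fold was 1.73 without control 2 and 1.80 without injury 2. It was 50.2 ± 4.0 CPM in SGC-like and 11.3 ± 2.49 in endothelial-like cells.

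Erythroid-like cells had 7 of 23 members called lower, and their median over the members was above that over all genes. With clusters and no upper limits 0 were called lower, and *Ldhb*, *Pgam1* and *Pkm* stood at -0.30, -0.75 and -0.95 on the log2 scale. *Aldoa* and *Eno1* had 39.8 ± 24.2 and 29.1 ± 9.15 CPM against 645 and 256 in the other types. *Pgam1* had 1, *Ldhb* 2, and *Gpi1* and *Pkm* 3 UMIs each in injury 2 and 0 in control 2. All 6 were called lower, as was *Pygb*, with 0 of 184760 UMIs, which allows up to 16.2 CPM beside 37.6 in the other types. *Hk1* (54.6 ± 13.3 CPM, n = 2) and *Bpgm* (74.4 ± 54.9) were not called. These cells rest on 10 barcodes of control 2 and 25 of injury 2.

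Levels were also compared between clusters of cells made from 2000 variable genes without the glycolysis list, as a description with no test. The 3 main SGC-like clusters shared *Ldhb* and differed in *Aldoc*. Cluster 0, of 743 cells led by *Hes5*, *Mt3* and *Sfrp5*, held *Aldoc* at 1188, 1013, 1125 and 923 CPM. Cluster 3, of 535 cells led by *Ccl5*, *Hfe* and *Entpd2*, held 648, 510, 570 and 515, and cluster 9, of 264 cells led by *Pou3f1*, *Cdkn1c* and *Nkd1*, held 114, 148, 170 and 96.2. The 3 ranges did not overlap, whereas *Ldhb* stood at 1427 ± 217, 1481 ± 175 and 1261 ± 238 CPM. Cluster 9 carried *Cldn19*, a listed Schwann marker, among its leading genes, and only 92 of its cells passed the gate, 88 of them as SGC-like. Libraries were not spread evenly: cluster 0 held 10 cells of control 1 and 348 of control 2.

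**Figure D3:**
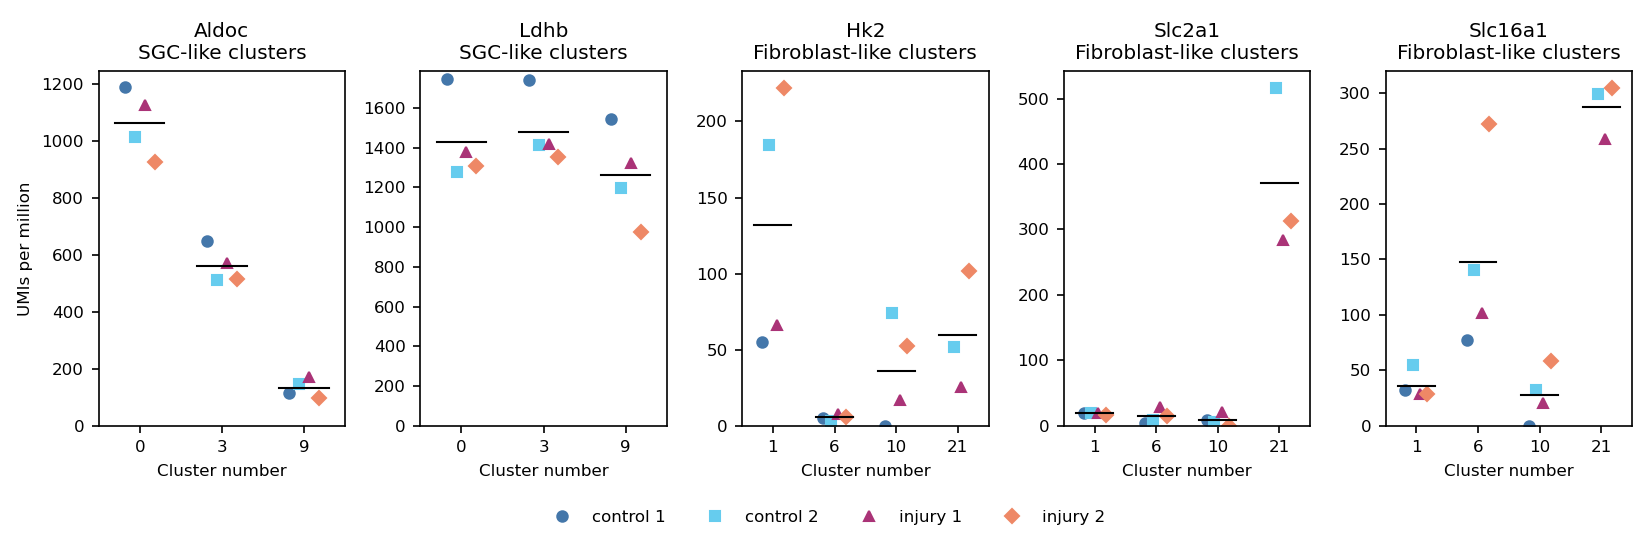
Levels in CPM in clusters of SGC-like and fibroblast-like cells, one point per library with at least 10 cells and a bar at the mean. *Aldoc* steps down from 1062 to 561 to 132 CPM over SGC-like clusters 0, 3 and 9 while *Ldhb* stays above 978 in every library, and *Slc2a1* reaches 371 CPM in fibroblast-like cluster 21 alone among the 4 drawn.

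Fibroblast-like cells divided by entry and exit genes. *Hk2* was high in cluster 1, of 727 cells led by *Trf*, *Osr2* and *Lum* (54.9, 185, 66.2 and 222 CPM), and near absent in cluster 6, of 308 cells led by *Slc47a1* and *Igf2* (5.63 ± 2.07). Cluster 6 instead held *Slc16a1* at 148 ± 86.7 CPM and *Pygb* at 117 ± 24.4, where cluster 1 held 36.2 ± 12.7 and 22.3 ± 8.26. Cluster 21, of only 59 cells led by *Kcnj13*, *Sfrp5*, *Ntng1* and *Itga6*, held *Slc2a1* at 516, 285 and 314 CPM and *Slc16a1* at 287 ± 25.0 (n = 3), with *Ldhb* at 401 ± 79.5, while *Slc2a1* did not exceed 28.5 CPM in any library of clusters 1, 6 and 10. Among macrophage-like clusters, cluster 7, led by *Ccl5*, *Cxcl9* and *Lgals3*, held *Gapdh* at 671 ± 108 CPM and cluster 2, led by *Mgl2* and *Ccl24*, at 435 ± 75.8, while *Hk2* stood at 47.2 ± 5.07 and 67.9 ± 55.1.

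Neurons were examined without the upper limits on UMIs and genes per cell, which left 41 gated neuron-like barcodes in control 2 and 12 in injury 2 and fewer than 10 in the other libraries. Over these 2 libraries and 7730 genes, 6 members were called higher and 0 lower (13.9% and 3.53% of all genes). *Eno2* stood at 74.9 and 67.5 CPM, against 2.83 in the other types (log2 fold 5.48 ± 0.64, adjusted p = 1.05e-09). *Aldoc* stood at 243 and 225 CPM (4.42 ± 0.36), *Pfkm* at 82.2 and 45.0 (2.92 ± 0.46), *Hk1* at 132 and 122 (2.28 ± 0.32), *Pygb* at 139 and 76.5 (2.26 ± 0.37), and *Eno3* at 17.7 on average (2.00 ± 0.68). Against the plain mean CPM of the other types, *Eno2* was 25.1 and *Hk1* 4.34 times as high. By that measure *Pfkm*, *Pygb*, *Aldoc* and *Eno3* were only 3.75, 3.17, 2.38 and 1.84 times as high. SGC markers summed to 469.5 and 378.2 CPM in the same cells, beside 8815 and 8095 for neuron markers. In clusters made without upper limits, neuron-like clusters held 25, 166, 34 and 79 barcodes in the 4 libraries. Few of these barcodes passed the gate: by cluster, 45 of 140, 10 of 106, 4 of 41 and 4 of 17. There *Ldhb* took 28.8% ± 4.35 of lactate dehydrogenase UMIs, *Aldoc* 6.32% ± 0.617 of aldolase UMIs, *Pfkp* 58.7% ± 10.1 of phosphofructokinase UMIs, *Eno2* 17.9% ± 8.45 of enolase UMIs and *Slc2a3* 65.2% ± 17.9 of glucose transporter UMIs (n = 4). In SGC-like cells *Ldhb* took 90.3%, *Aldoc* 49.7%, *Pfkp* 8.05% and *Slc2a3* 3.14%. The barcodes were selected in another way, SGC markers summed to 272.2 to 723.9 CPM in the neuron-like clusters, and the difference was not tested.

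Of 74 other genes of the pathway and its branches, 29 passed the filter. SGC-like cells had 4 called higher and 0 lower, with *Gpd1*, glycerol phosphate dehydrogenase, at 139 CPM (log2 fold 6.4 ± 0.33), *Pcx*, pyruvate carboxylase, at 55.2 (4.12 ± 0.36), and *Epas1*, the hypoxia factor HIF2A, at 155 (3.61 ± 0.32). The *Epas1* level was only 1.45 times the plain mean of the other types and below that of smooth muscle-like (405 CPM), endothelial-like (361) and pericyte-like cells (263). Schwann-like cells had 2 higher, *Gpd1* at 78.1 CPM (5.47 ± 0.52) and *Bnip3*, a mitophagy receptor (2.43 ± 0.40). Muscle forms were found in mural cells: *Slc2a4*, the insulin-responsive GLUT4, stood at 121 CPM in smooth muscle-like (6.65 ± 0.57) and 73.0 in pericyte-like cells (5.74 ± 0.74), and *Pygm*, muscle glycogen phosphorylase, at 69.3 (5.92 ± 0.64) and 102 (6.05 ± 0.69). Pericyte-like cells had 7 and smooth muscle-like cells 5 of the 29 higher. *Emb*, embigin, a chaperone of monocarboxylate transporters, was at 628 CPM in monocyte-like (6.27 ± 0.29), 247 in fibroblast-like (4.69 ± 0.24) and 164 in dendritic cell-like cells (4.51 ± 0.51), the last only 1.68 times the plain mean of the other types. Endothelial-like cells had 3 higher, fibroblast-like 4, macrophage-like 2, monocyte-like 4 and Scn7a glia-like 0, all with 0 lower, dendritic cell-like cells 1 higher and 2 lower, and erythroid-like cells 4 higher and 2 lower, among them *Slc16a10* at 151 CPM (7.92 ± 0.82).

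Injury was compared with control within each type that had 10 cells in every library, 2 libraries against 2, by edgeR's quasi-likelihood test. None of the members was called in any of the 5 types by this test. In macrophage-like cells *Hk2* was called in an alternative with the replicate number as a block, with no share over all genes beside it. Differences of *Hk2*, *Ldhb* and *Pgk1* there also changed with the library left out (both given below). With 2 libraries in a group a difference of moderate size can be missed, so the absence of a call does not show that levels were alike. The numbers called were 0 of 23 in SGC-like cells (0.0% of 8524 genes), 0 of 10 in Schwann-like cells (0.0% of 2559), 0 of 18 in endothelial-like cells (0.017% of 5872), 0 of 22 in fibroblast-like cells (0.0% of 8522) and 0 of 22 in macrophage-like cells (0.0% of 6649). Before adjustment 95, 47, 100, 125 and 607 genes had p under 0.05, among them 1 member, and DESeq2 called 0 members too. The members' log2 differences spanned -0.68 to 0.69 in SGC-like cells with a median of 0.07 (0.01 over all genes).

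*Aldoc* in SGC-like cells was 649 and 943 CPM in control and 832 and 843 in injury libraries, with a log2 difference of 0.13 ± 0.28 (SE), and the injured pair lay within the control pair. *Ldhb* was 1660 and 1287 against 1436 and 1304 (0.00 ± 0.24), and *Slc2a1* in endothelial-like cells 463 and 336 against 668 and 298 (0.39 ± 0.39). *Slc16a1* in SGC-like cells was lower in both injury libraries (30.4 and 52.6 CPM against 79.6 and 58.5), at -0.60 ± 0.34 and an adjusted p = 1.00, so the difference did not pass the test. In macrophage-like cells *Hk2* went from 49.0 and 139 CPM in control to 32.9 and 48.0 in injury libraries, a log2 difference of -1.23 ± 0.45 with an adjusted p = 0.49 by edgeR (0.0273 before adjustment). The macrophage-like clusters were not equally filled: cluster 2 held 214 and 59 cells of control and 247 and 122 of injury libraries, cluster 7 held 30 and 16 against 198 and 45, and cluster 19, led by *Hist1h2ap*, *Ube2c* and *Birc5*, held 0 and 3 against 35 and 34. The part of this shift in the *Hk2* difference was not tested. The *Hk2* value of control 2 stood alone. Fits without 1 library leave 1 library in a group and cannot measure its spread, so only their log2 differences are given. For *Hk2* the difference became -1.90 without control 1, which leaves the high control 2 (139 CPM) as the only control. Control 1, at 49.0 CPM, was close to injury 2 at 48.0. For *Ldhb* in the same cells it was 2.36 without control 2. The *Ldhb* levels were 11.9, 76.5, 63.7 and 77.0 CPM (control 1, control 2, injury 1, injury 2). Control 2 thus lay within the injury pair, and only control 1 was low. For *Pgk1* the difference was -3.18 without injury 2.

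Counted without a test, 8 of 23 members in SGC-like cells had injury and control values that did not overlap (25.6% of all genes), 2 of 10 in Schwann-like (25.4%), 0 of 18 in endothelial-like (28.7%), 4 of 22 in fibroblast-like (26.3%) and 6 of 22 in macrophage-like cells (42.4%). In neuron-like clusters without upper limits, chosen after seeing that the planned neuron test had too few barcodes, 0 of 26 members were called (0.0% of 10358 genes, 1020 with an unadjusted p under 0.05). *Slc2a1* stood at 13.7 and 11.6 CPM in control and 40.2 and 24.8 in injury libraries (log2 difference 1.52, unadjusted p = 0.00607, adjusted p = 0.30). *Pfkm* stood at 75.5 and 71.1 against 33.7 and 40.1 (-0.84, unadjusted p = 0.00929, adjusted p = 0.353). A test of whether the injury difference varied between the 5 types called 0 of 27 members and 6 of 10597 genes.

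**Figure D4:**
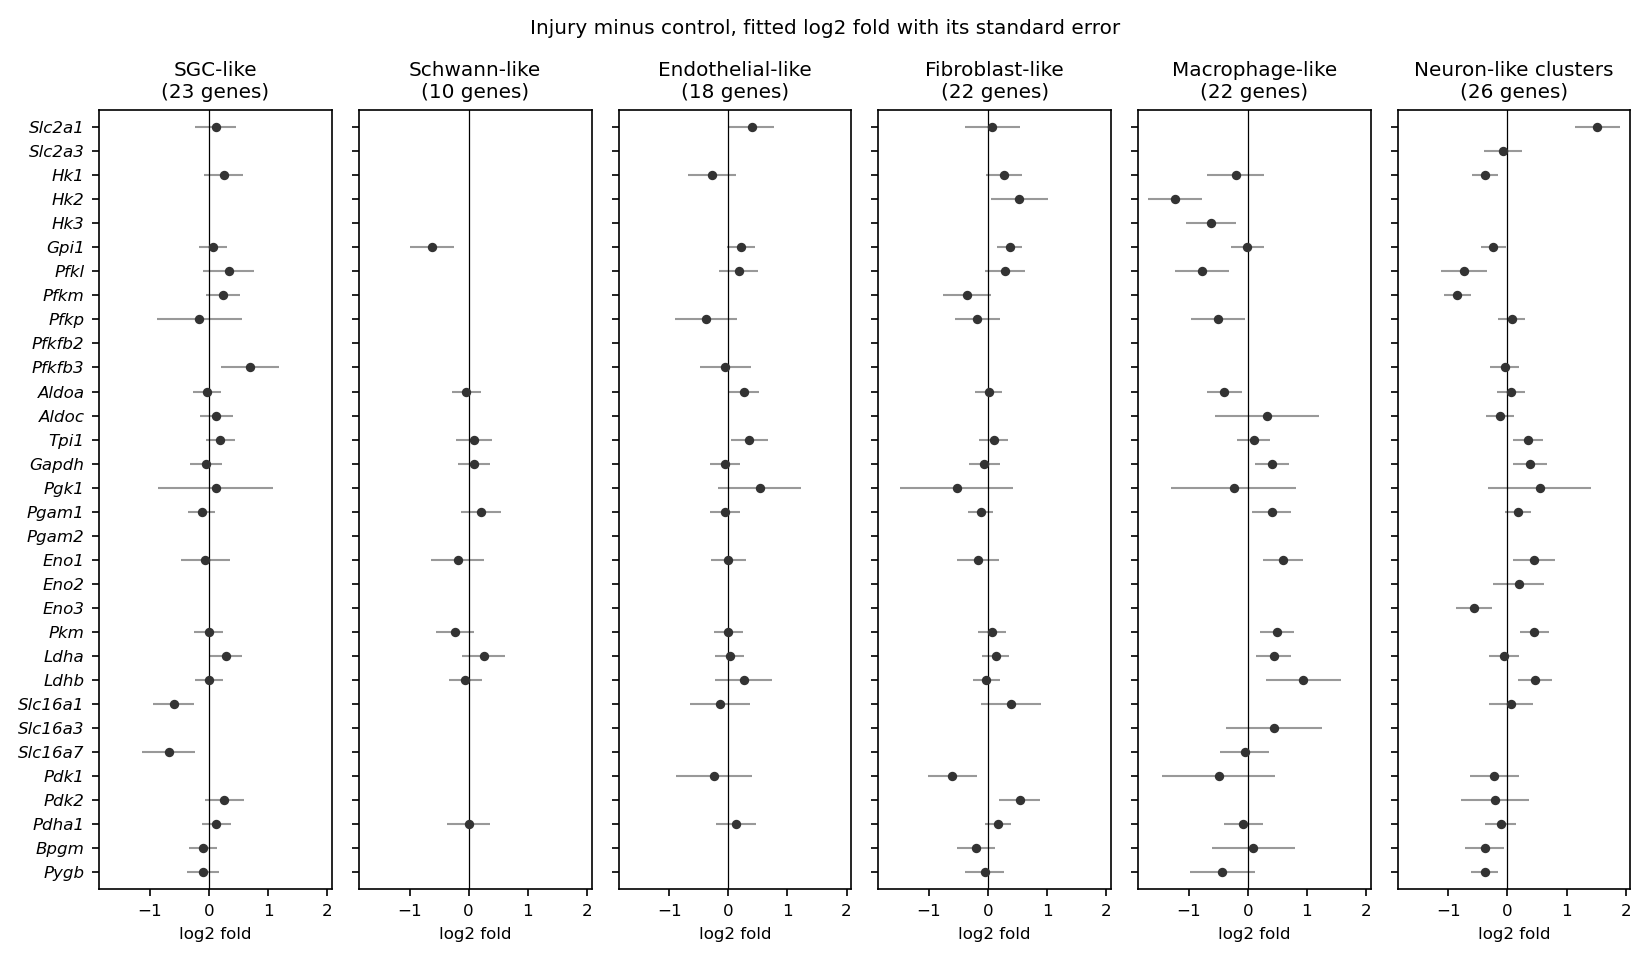
Fitted log2 difference between injury and control libraries with its standard error for each gene that passed the filter, in 5 gated types and in neuron-like clusters without upper limits. Bars of most genes cross 0, and the largest differences are *Slc2a1* in neuron-like clusters (1.52) and *Hk2* in macrophage-like cells (-1.23), with adjusted p = 0.30 and 0.49.

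Some members moved with single libraries and not with injury. *Pgk1* was found over all kept cells at 72.4, 36.4, 4.38 and 85.7 CPM in control 1, control 2, injury 1 and injury 2, and in SGC-like cells at 91.9, 51.9, 6.98 and 128. The low value of injury 1 recurred in Schwann-like (0 CPM), endothelial-like (8.85), fibroblast-like (2.43) and macrophage-like cells (3.70). Of 5936 genes with a mean of at least 20 CPM, 14 were lower in injury 1 than in every other library by 4 times or more, *Pgk1* among them. *Eno1* followed in part (270, 277, 165 and 351 CPM). Of the 32 genes, 10 have near-identical copies in the genome (95% identity over 200 bases or more), among which counting can split or drop reads. The 10 are *Gpi1*, *Pfkfb2*, *Tpi1*, *Gapdh*, *Pgk1*, *Pgam1*, *Eno1*, *Pkm*, *Ldha* and *Ldhb*. The part of such copies in the *Ldha* and *Ldhb* levels and shares was not tested. The copies *Pgk1-rs7* (3.26, 1.78, 0.219 and 6.02 CPM), *Eno1b* (19.6, 7.94, 1.2 and 22.2) and *Gm1840*, a copy of *Gpi1* (9.55, 2.92, 0.766 and 8.43), were also lowest in injury 1, so the levels of these genes are uncertain. *Slc16a1* stood at 21.0, 56.0, 20.8 and 54.2 CPM over all cells, near the same in both libraries numbered 1 and in both numbered 2.

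**Figure D5:**
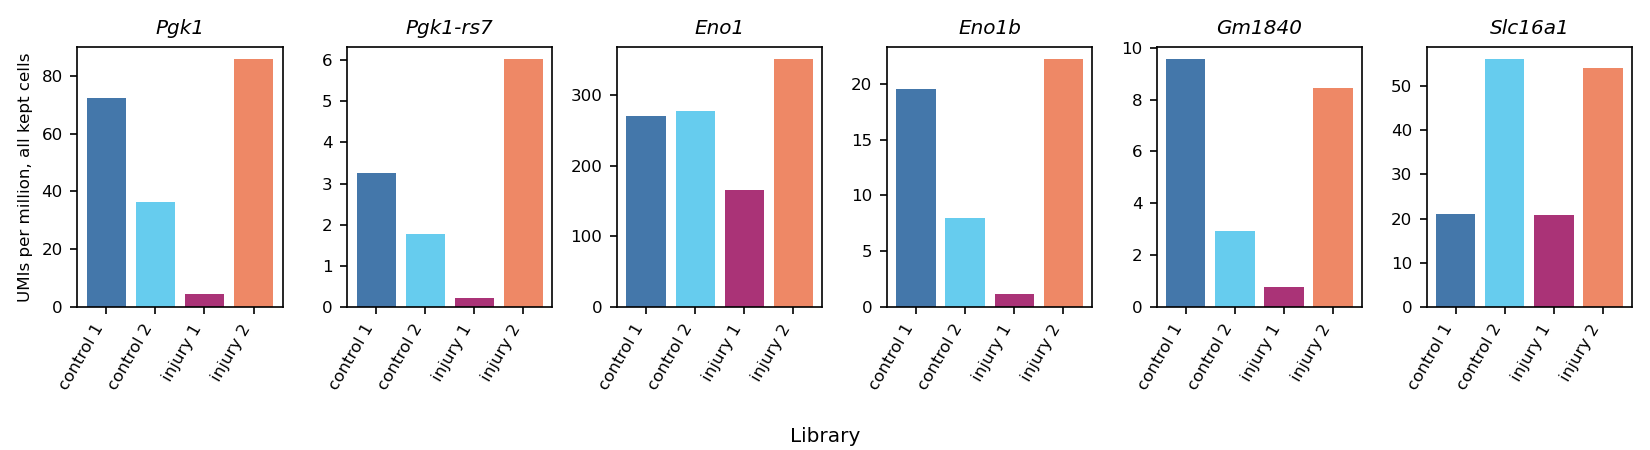
Bars of CPM over all kept cells in each library, from 0, for *Pgk1*, *Eno1*, 3 near-identical copies and *Slc16a1*. *Pgk1* is at 4.38 in injury 1 and 36.4 to 85.7 in the other libraries, its copy *Pgk1-rs7* follows, and *Slc16a1* is at 21.0 and 20.8 in the libraries numbered 1 and at 56.0 and 54.2 in those numbered 2.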

How the data were processed

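The deposited files held raw UMI counts per gene and barcode for 4 libraries, which the authors made with Cell Ranger on mm10. Partek is named for their later analysis. Barcodes were kept at 600 to 15000 UMIs, 500 to 4000 genes and under 10% mitochondrial UMIs, so that 6095 of 6975 remained. Types were gated on 125 markers of 15 types, and UMIs were summed for each type in each library with at least 10 cells. No doublet caller was run, but the rule that the marker share be 2 times that of every other type leaves barcodes with markers of several types unnamed. The sums were tested with edgeR 4.0.16 (quasi-likelihood, TMM scaling, Benjamini-Hochberg adjustment over all genes) in R 4.3.3. DESeq2 1.42.0, no filter on low counts, a gate on 2 markers, no upper limits, types taken from clusters (scanpy 1.11.5, leidenalg 0.10.2) and leaving out each library were tried as alternatives. Intervals are exact at 95% and, like the limit of 3 counts for a count of 0, cover counting error only. The statistics were tested on simulated data, where the comparison of injury with control recovered most large changes and very few small ones. Promoter windows are RefSeq's, on GRCm38.p6.

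The members, marker lists and pathway lists were chosen with earlier results of these data known. All 32 members are described, and of the other pathway genes at most the 3 with the largest fold called in each type are named. The labels number replicate 2 alone, and the other library of each group was numbered 1 in accession order. The planned test of injury in gated neuron-like cells had fewer than 10 cells in 3 of 4 libraries and was replaced by a test on clusters, chosen after seeing the data.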

Additional observations from a re-analysis of the deposited data

Results flagged for a closer look

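The analysis of gated cells left out UMIs of the 32 genes in barcodes outside it. In 259 barcodes above the upper limits on UMIs or genes there were 67998 UMIs of these genes, beside 100881 in all kept cells. In the 1532 kept cells that the gate left unnamed there were 24488, at 4063 CPM, beside 3939 CPM in the gated cells.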

How the results depend on the processing

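Of the 32 pairs of a gene and a type called, 15 were called in every alternative that tested them and 0 changed sign. Those were *Aldoc*, *Ldhb*, *Bpgm* and *Pfkm* in SGC-like cells, *Ldhb* in Schwann-like, *Aldoc* in Scn7a glia-like, *Slc2a1* in endothelial-like, *Hk2* and *Slc16a1* in fibroblast-like, *Hk2* in macrophage-like, *Slc16a3* in monocyte-like, *Ldhb*, *Eno3* and *Pfkp* in dendritic cell-like and *Slc16a1* in erythroid-like cells. Scn7a glia-like, dendritic cell-like and erythroid-like cells had 2 libraries each in the fit, and leaving out either removed that type. Those of the 15 pairs in these types were thus never tested without one of their own libraries. *Slc16a3* in monocyte-like cells was tested in 8 alternatives, and not without control 1 or without injury 1, the libraries where it was highest. *Eno3* in dendritic cell-like cells was tested in 6 alternatives, and in neither of those that took types from clusters. The pairs outside the 15 were lost in at least 1 alternative, in types with 4 libraries as well as in sparse types. The cause was not tested, nor was it where a count moved. Counts within 1.5 times are not repeated. The shares of all genes called in each alternative are not given beside these counts. A count that moved is therefore not a result about the members. With DESeq2 the members called higher were 1 in Schwann-like, 1 in endothelial-like, 1 in smooth muscle-like and 1 in macrophage-like cells, and lower 4 in SGC-like, 2 in endothelial-like, 1 in smooth muscle-like and 1 in monocyte-like cells. With no filter on low counts, higher were 1 in Scn7a glia-like, 4 in endothelial-like, 1 in pericyte-like, 5 in smooth muscle-like, 4 in macrophage-like and 4 in monocyte-like cells, and lower 2 in dendritic cell-like cells. With a gate on 2 markers, higher were 1 in endothelial-like, 1 in smooth muscle-like and 1 in macrophage-like cells, and lower 1 in Schwann-like, 1 in monocyte-like and 2 in dendritic cell-like cells. With no upper limits, higher were 1 in smooth muscle-like and 1 in macrophage-like cells, and lower 1 in Scn7a glia-like and 2 in dendritic cell-like cells. With types from clusters, higher were 1 in Schwann-like, 1 in endothelial-like, 1 in pericyte-like, 0 in smooth muscle-like, 4 in dendritic cell-like and 2 in erythroid-like cells, lower 1 in Scn7a glia-like, 1 in smooth muscle-like and 2 in dendritic cell-like cells, and the *Pfkm* share in SGC-like cells was 62.6%. With a fold of at least 2, higher were 4 in Schwann-like, 1 in pericyte-like, 6 in smooth muscle-like, 4 in fibroblast-like, 4 in macrophage-like, 7 in monocyte-like, 5 in dendritic cell-like and 3 in erythroid-like cells, and lower 3 in Scn7a glia-like, 1 in endothelial-like and 2 in dendritic cell-like cells.

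The remaining alternatives were chosen after seeing the data. With clusters and no upper limits, higher were 1 in Schwann-like, 1 in endothelial-like, 1 in pericyte-like, 0 in smooth muscle-like and 4 in dendritic cell-like cells, and lower 1 in pericyte-like, 2 in smooth muscle-like, 2 in dendritic cell-like and 0 in erythroid-like cells. There the 6 genes lower in erythroid-like cells ran from -1.31 (*Aldoa*) to -0.30 (*Ldhb*) on the log2 scale. When the mean CPM also had to be 4-fold higher, 2 remained in SGC-like, 1 each in Schwann-like, endothelial-like, fibroblast-like, macrophage-like and monocyte-like cells, and 0 in Scn7a glia-like and smooth muscle-like cells.

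Leaving out 1 library at a time gave 1 member higher in Schwann-like cells at the lowest, 1 in endothelial-like, 1 in macrophage-like, 1 in monocyte-like and 0 to 1 in smooth muscle-like cells, and lower 0 in SGC-like, 1 in Scn7a glia-like, 1 in monocyte-like and 2 in dendritic cell-like cells. After injury the differences of *Hk2*, *Ldhb* and *Pgk1* in macrophage-like cells depended on the library left out, as given above. Without a library an arm holds 1 sample, which is assumed to vary like the other arm, so calls from these injury fits are not counted.

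With the replicate number as a block, 1 member was called after injury in macrophage-like cells, *Hk2* (log2 difference -1.16, edgeR adjusted p = 0.00655), and 0 in the other 4 types. The labels do not say what the number marks, and with 2 pairs the pairing cannot be established. The share of all genes called with the block is not given here, so the call does not set *Hk2* apart from other genes. The correlation of same-numbered libraries' deviations was 0.225 to 0.438 over the 5 types.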
